A study of Bos taurus with 10 samples.

Results

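A set of 5 genes that mark fat cells was followed in the longissimus muscle of 10 steers: ADIPOQ (ENSBTAG00000019813), FABP4 (ENSBTAG00000037526), LEP (ENSBTAG00000014911), LPL (ENSBTAG00000012855) and CD36 (ENSBTAG00000017866). They were chosen by identifier from the 16963 gene rows of the count table, and all 5 were present and passed the expression filter that left 12295 genes for testing. The steers were Angus x Simmental males, 385 ± 5 days old. The dams of 5 animals received dried distillers grains and solubles (DDGS) during lactation and the dams of the other 5 the control diet, named SBM. The question was whether gene expression in the muscle of mature steers depended on what their dams ate while nursing them. Each library is the whole-tissue RNA of 1 animal.

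Intramuscular fat, the marbling of beef, consists of adipocytes lying between muscle fibre bundles. ADIPOQ encodes adiponectin and LEP encodes leptin, both hormones secreted by adipocytes, and leptin expression is known to rise with the lipid stored per cell. FABP4 is the cytosolic fatty acid carrier of adipocytes, also present in capillary endothelium. LPL releases fatty acids from circulating lipoproteins and CD36 takes up long-chain fatty acids, and both are made by muscle tissue as well as by fat. In RNA from whole muscle, fewer fat cells and less RNA per fat cell cannot be told apart.

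The libraries held 16942156 to 24936741 counts. The identifiers came paired with symbols in the definition of the gene list, while the count table itself holds no names and the reference gene table no Ensembl identifiers. Markers of muscle fibres, endothelium and blood were therefore not examined, and the labelled tissue was not checked against its markers. DDGS replicate 3 stood apart for the fat cell genes, and the results that rest on it are given with and without it. It had 17423127 counts, inside the range of the other libraries, but 5078 genes at the lowest listed value of 1, against 2524 to 4699 in the other 9. Its TMM factor, which scales the library total, was 0.845, against 0.914 to 1.15 in the other 9. The scaled total of this library was thus the smallest of the 10. Among tested genes, 2765 had a mean of 20 or more CPM (the counts of a gene relative to the library total, with TMM-scaled totals). This library was the lowest of the 10 for 294 of them, against 138 to 721 genes in the other libraries. For 29 of the 2765 genes, 1.05%, its value was under 1/3 of the next lowest library, which occurred for 0 to 11 genes in each of the other libraries. ADIPOQ, FABP4 and LEP were among these 29. Across the 10 steers the log2 level of each fat cell gene was negatively correlated with the number of genes listed at 1 (5 relations, exact two-sided permutation p adjusted over the 5). Pearson's r was -0.75 for FABP4 (exact permutation p = 0.00664, adjusted p = 0.0332) and -0.69 for LEP (exact permutation p = 0.0137, adjusted p = 0.0342), and the Spearman's rho of -0.58 and -0.56 did not pass (exact permutation p = 0.0883 and 0.0963, adjusted p = 0.241 for both). For ADIPOQ, LPL and CD36 r was -0.62, -0.52 and -0.42 (exact permutation p = 0.0516, 0.122 and 0.232; adjusted p = 0.086, 0.152 and 0.232), and rho was -0.44, -0.27 and -0.14 (exact permutation p = 0.204, 0.448 and 0.707; adjusted p = 0.341, 0.560 and 0.707). Without DDGS replicate 3, r was -0.58 for FABP4, -0.44 for LEP, -0.27 for ADIPOQ, -0.13 for LPL and 0.01 for CD36, and none passed (adjusted exact permutation p = 0.511 to 0.976). The 2 libraries with the most extreme numbers relative to the median were those of DDGS replicate 3 and of SBM replicate 4. When they were left out, r was -0.49 for FABP4 (exact permutation p = 0.225, adjusted p = 0.963). Its rho was -0.19 (exact permutation p = 0.665, adjusted p = 0.840). For the other 4 genes r was -0.14 to 0.09 (adjusted exact permutation p = 0.963 for each). For none of the 5 genes is a negative relation thus shown without these libraries.

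Over the 10 steers the secreted hormones had the largest relative spread, though among SBM steers ADIPOQ varied less than FABP4 or LPL. ADIPOQ stood at 286, 336, 46.4, 234 and 429 CPM in DDGS replicates 1 to 5 and at 176, 189, 163, 142 and 229.6 CPM in SBM replicates 1 to 5. DDGS replicate 3 was the lowest of the 10 steers, and the other 4 DDGS steers lay above all SBM steers, the closest pair being 234 CPM in DDGS replicate 4 and 229.6 CPM in SBM replicate 5. With RLE in place of TMM factors this closest pair overlapped, at 232 CPM for the lowest of these DDGS steers and 233 CPM for the highest SBM steer. The group means were 266 ± 142 CPM in DDGS and 180.1 ± 32.6 CPM in SBM (SD, n = 5 each).

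LEP, the other hormone gene, stood at 33.5, 35.6, 0.748, 50.7 and 29.7 CPM in DDGS replicates 1 to 5 and at 19.3, 40.9, 13.9, 13.6 and 30.6 CPM in SBM replicates 1 to 5. The groups overlapped widely: only DDGS replicate 4 exceeded the highest SBM steer. In DDGS replicate 3 the gene had 11 counts, or 0.631 CPM of the unscaled library total, with an exact 95% binomial interval of 0.315 to 1.13, which covers counting error only. Every other steer had at least 253 LEP counts. The group means were 30.1 ± 18.2 CPM in DDGS and 23.7 ± 11.9 CPM in SBM (SD, n = 5 each).

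FABP4 stood at 343, 359, 44.9, 408 and 385 CPM in DDGS replicates 1 to 5 and at 145, 356, 228, 209 and 298 CPM in SBM replicates 1 to 5. In 4 DDGS steers the values lay within 343 to 408 CPM, while the SBM steers were spread from 145 to 356 CPM, so that SBM replicate 2 fell inside the DDGS range. The means were 308 ± 149 CPM in DDGS and 247 ± 81 CPM in SBM (SD, n = 5 each). In the RefSeq gene order of the ARS-UCD2.0 assembly, FABP4 lies between its relatives FABP9 and FABP12, with FABP5 and PMP2 close by, and the sharing of reads among them was not tested.

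The lipid uptake genes had the narrowest ranges. LPL stood at 295, 351, 114, 343 and 453 CPM in DDGS replicates 1 to 5 and at 221, 269.6, 194, 232 and 314 CPM in SBM replicates 1 to 5. CD36 stood at 244, 287, 156, 292 and 314 CPM in DDGS replicates 1 to 5 and at 199.6, 251, 198, 255 and 282 CPM in SBM replicates 1 to 5. For both genes DDGS replicate 3 was the lowest steer and DDGS replicate 5 the highest, and 3 DDGS steers lay above the highest SBM steer. This number was 2 for CD36 with RLE factors, and 2 for both genes without scaling factors. LPL averaged 311 ± 124 CPM in DDGS and 246 ± 47 CPM in SBM, and CD36 averaged 259 ± 63 and 237 ± 37 CPM (SD, n = 5 each). CPM values are not divided by transcript length, so no order between the genes is read from them.

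**Figure D1:**
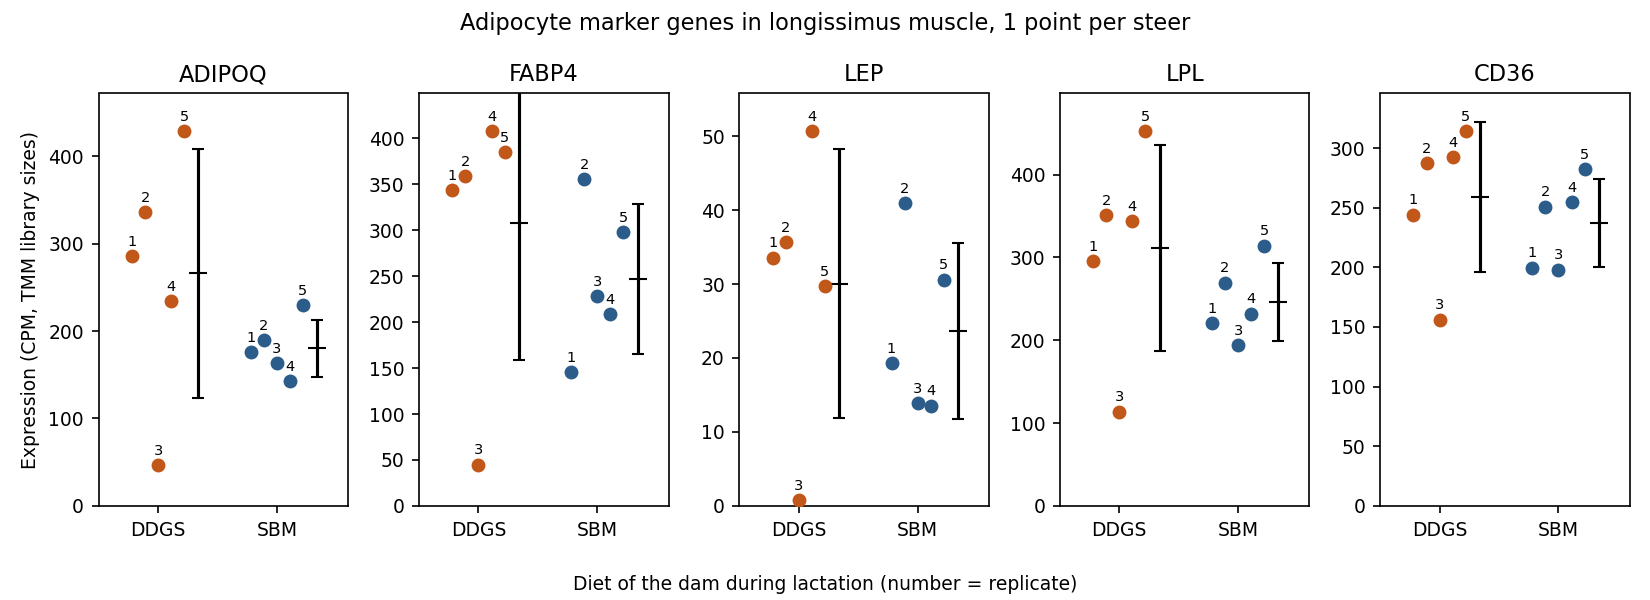
Expression of each gene (vertical axis, CPM from 0, a separate scale per gene) in the 5 DDGS and 5 SBM steers, 1 numbered point per steer, with the group mean and SD as black bars. DDGS replicate 3 is the lowest point in all 5 panels, from 0.748 CPM for LEP to 156 CPM for CD36.

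The distance of DDGS replicate 3 from the rest differed by gene. Its value was 2.0% of the mean of the other 4 DDGS steers for LEP, 12.0% for FABP4, 14.5% for ADIPOQ, 31.5% for LPL and 54.9% for CD36. The hormones and FABP4 were thus farther below the other animals than the lipid uptake genes LPL and CD36. Against the median of the other 9 steers, the log2 ratio was -5.36 for LEP, -2.94 for FABP4, -2.31 for ADIPOQ, -1.38 for LPL and -0.71 for CD36. The median of this log2 ratio over the same 2765 genes was 0.15, and 5% of the genes lay below -0.94. LEP ranked so low that only 10 of these genes were lower, against 193 for CD36.

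Ratios of CPM to ADIPOQ within a steer, in which library size cancels, restate the same values relative to ADIPOQ and are no separate support for this order. The LEP ratio was 0.0161 in DDGS replicate 3 and 0.0693 to 0.216 in the other 9 steers. The LPL ratio was 2.45 in that animal and 1.03 to 1.63 in the others, and the CD36 ratio was 3.36 against 0.733 to 1.79. The FABP4 ratio, at 0.966, lay inside the range of the others, 0.826 to 1.88. Relative to ADIPOQ, this animal thus had the least LEP of the 10 steers, the most LPL and CD36, and an intermediate FABP4 level.

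The spread between steers was large for 4 of the genes even when compared with genes of like abundance. The coefficient of variation over 10 steers was 48.1% for ADIPOQ, where the tested genes within 2-fold of its mean had a median of 18.0% and 11 of 288 varied more. It was 42.4% for FABP4 against a median of 18.2%, with 16 of 222 genes higher, and 34.1% for LPL against 18.3%, with 21 of 221 higher. LEP, at 55.4% against a median of 22.6%, was exceeded by 59 of 2926 genes. CD36 varied about as much as its neighbours in abundance, with 20.1% against 17.98% and 95 of 252 genes higher. Without DDGS replicate 3 the coefficients were 38.3% for ADIPOQ, 41.8% for LEP, 29.6% for FABP4, 26.9% for LPL and 15.6% for CD36. In those 9 steers 13 of 252 like genes varied more than ADIPOQ and 106 of 2707 more than LEP. For FABP4 it was 20 of 197, for LPL 28 of 204 and for CD36 130 of 239.

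The 5 genes rose and fell together across the steers. All 10 pairs were positively correlated on the log2 CPM scale over the 10 steers, with Pearson's r from 0.825 to 0.959 and p-values (exact two-sided permutation over all orders) that passed 0.05 after Benjamini-Hochberg adjustment over the 10 pairs. The closest pairs were ADIPOQ with LPL (r = 0.959, exact permutation p = 5.68e-05, adjusted p = 0.000284; Spearman's rho = 0.927, exact permutation p = 0.000335, adjusted p = 0.00167) and LPL with CD36 (r = 0.959, exact permutation p = 1.82e-05, adjusted p = 0.000182; rho = 0.939, exact permutation p = 0.000206, adjusted p = 0.00167). FABP4 and LEP followed (r = 0.958, exact permutation p = 0.000852, adjusted p = 0.00213; rho = 0.830, exact permutation p = 0.00471, adjusted p = 0.00785). The loosest pair was LEP with CD36 (r = 0.825, exact permutation p = 0.00406, adjusted p = 0.00445), whose rank correlation of 0.576 did not pass (exact permutation p = 0.0883, adjusted p = 0.0883). For the other 6 pairs r was 0.861 to 0.913 with adjusted permutation p of 0.00169 to 0.00445, and rho was 0.673 to 0.879 with adjusted permutation p of 0.00533 to 0.0433. As deviations from the diet group means, with DDGS replicate 3 included, r was 0.857 to 0.965, and all 10 pairs passed. These deviations were permuted over all 10 steers, not within each diet, and without allowance for the fitted group means. Their p-values are therefore approximate. Coefficients within each diet, with 5 steers, were not computed.

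All 10 coefficients were lower without DDGS replicate 3. In the other 9 steers r was 0.587 to 0.915, and 5 of the 10 pairs passed after adjustment. Those 5 were LPL with CD36 (r = 0.915, adjusted exact permutation p = 0.00278), ADIPOQ with LPL (r = 0.903, adjusted exact permutation p = 0.00485), and FABP4 with LEP, CD36 and LPL (r = 0.808, 0.783 and 0.783, each with an adjusted exact permutation p of 0.0279). ADIPOQ with FABP4, ADIPOQ with CD36 and LEP with LPL just missed the threshold (r = 0.689, 0.690 and 0.706, each with an adjusted exact permutation p of 0.0515). LEP with CD36 had r = 0.633 (adjusted exact permutation p = 0.0753), and ADIPOQ with LEP had the lowest value, 0.587 (adjusted exact permutation p = 0.0973). Leaving out the 2 steers farthest from the median of the first gene of each pair, always DDGS replicate 3 and 1 other, gave r from 0.568 for ADIPOQ with CD36 to 0.941 for FABP4 with LEP. Of the pairs, 4 then passed: FABP4 with LEP, LPL with CD36 (r = 0.903), ADIPOQ with LPL (r = 0.833) and FABP4 with LPL (r = 0.814). The r values of ADIPOQ with FABP4 (0.676), LEP (0.718) and CD36 (0.568), FABP4 with CD36 (0.659), and LEP with LPL (0.678) and CD36 (0.760) did not pass after adjustment in the remaining 8 steers.

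**Figure D2:**
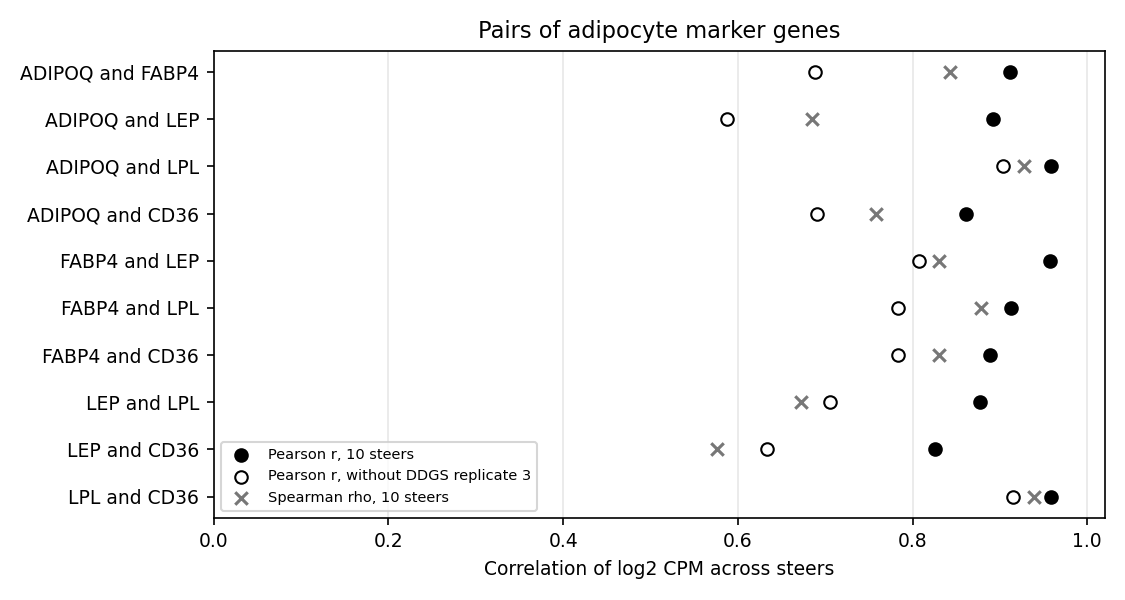
Correlation of log2 CPM (horizontal axis) for each of the 10 gene pairs: Pearson's r over 10 steers (filled), without DDGS replicate 3 (open), and Spearman's rho over 10 steers (crosses). Every open point lies to the left of its filled point, and ADIPOQ with LPL and LPL with CD36 stay above 0.9 in both.

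Set against all other genes, the partners stood near the top of the table. Among 11475 other tested rows with a mean of at least 1 CPM, ranked by r with ADIPOQ, LPL was 3, FABP4 29, LEP 47 and CD36 82. The median r of all rows with ADIPOQ was 0.001, and 39 of them (0.34%) reached 0.9, against 3 (0.026%) without DDGS replicate 3. For CD36 the row most like it in the table was LPL, which stood at rank 5 without DDGS replicate 3. Without that steer, LPL stayed at rank 3 for ADIPOQ, whereas CD36 moved to 145, FABP4 to 148 and LEP to 396. These ranks are a description over genes that share the same 10 libraries.

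The 2 rows most like ADIPOQ were ENSBTAG00000001333 (r = 0.980) and ENSBTAG00000032774 (r = 0.966), with no name attached to either. ENSBTAG00000001333 stood at 3.06 CPM in DDGS replicate 3 and at 9.65 to 31.3 CPM in the others, and without that steer its r of 0.935 was still the highest of all rows. ENSBTAG00000032774 stood at 21.7 CPM in DDGS replicate 3 and at 48.1 to 96.1 CPM in the others, with r = 0.897 without it. The rows with the most opposite pattern were ENSBTAG00000012353 (r = -0.902) and ENSBTAG00000002625 (r = -0.886). DDGS replicate 3 was the highest steer for both, with 14.8 CPM against 8.49 to 13.5 CPM and 33.2 CPM against 19.7 to 26.7 CPM. Without it ENSBTAG00000012353 had r = -0.913 and ENSBTAG00000002625 r = -0.705.

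Over the 10 steers the genes followed ADIPOQ with different steepness. Per doubling of ADIPOQ, on the log2 CPM scale, LPL rose by 0.61 ± 0.06 (slope ± SE of a straight line over 10 steers) and CD36 by 0.31 ± 0.06. Without DDGS replicate 3 these slopes were 0.66 ± 0.12 and 0.31 ± 0.12, so that both genes changed less than ADIPOQ in either set of steers. FABP4 had a slope of 1.01 ± 0.16, and LEP one of 1.74 ± 0.31. Both were lower without that steer, at 0.66 ± 0.26 and 0.76 ± 0.40, where the LPL slope of 0.66 lay within their SE. The steeper slopes of FABP4 and LEP than of LPL thus rest on DDGS replicate 3.

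**Figure D3:**
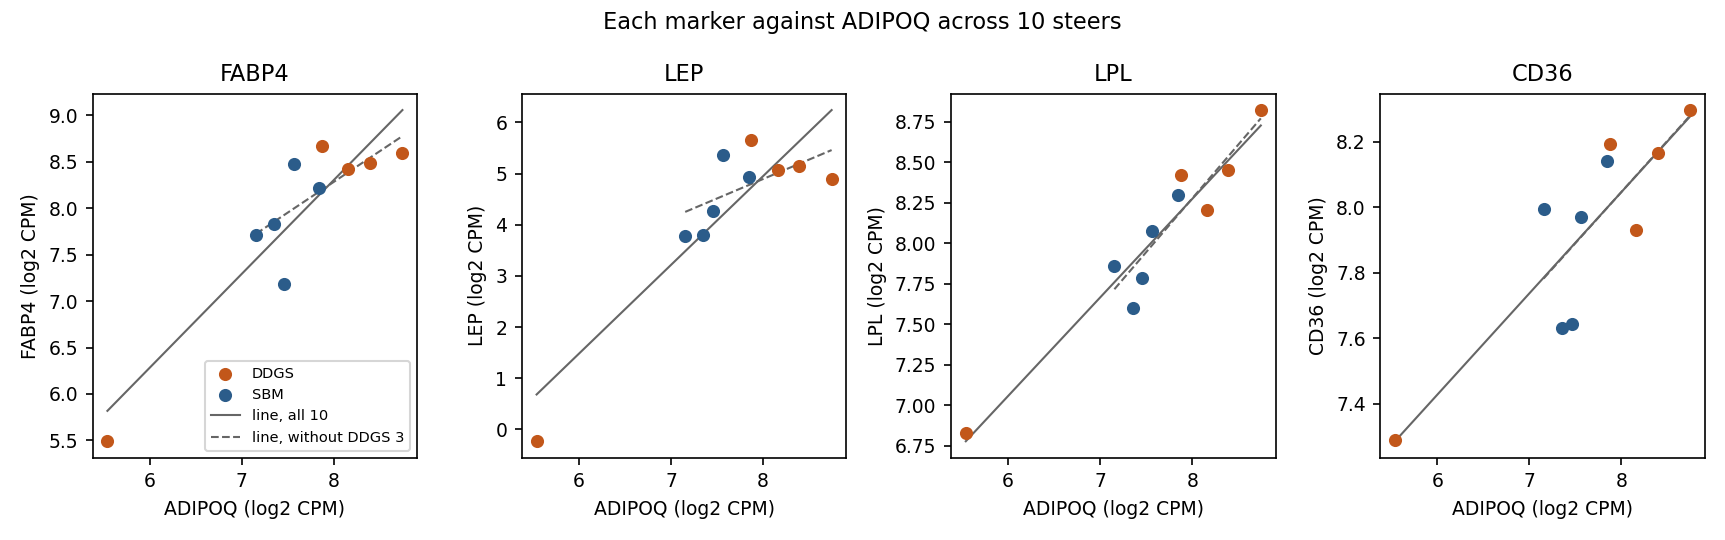
FABP4, LEP, LPL and CD36 (vertical axes, log2 CPM, a separate scale per gene) against ADIPOQ (horizontal axis, log2 CPM) in 5 DDGS and 5 SBM steers, with lines fitted to all 10 steers (solid) and without DDGS replicate 3 (dashed). The solid and dashed lines nearly coincide for LPL and CD36, and for FABP4 and LEP the dashed line is flatter.

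Between the maternal diets, none of the 5 genes differed by more than the spread between steers. All 5 had a higher fitted level in DDGS, with LEP turning to a log2 fold change of -0.04 when the replicate number was a block. Of the 5, 0 passed a Benjamini-Hochberg adjusted p of 0.05 in edgeR's quasi-likelihood test over 12295 genes, where 0% of all genes passed. At an unadjusted p under 0.05 there were also 0 of the 5, against 3.74% of all genes (460). The log2 fold changes, DDGS over SBM, were 0.56 for ADIPOQ (SE 0.48), 0.32 for FABP4 (SE 0.53), 0.35 for LEP (SE 0.79), 0.34 for LPL (SE 0.28) and 0.13 for CD36 (SE 0.18), each with an edgeR adjusted p of 0.996. Their median was 0.34, that of all tested genes -0.01. Because the genes vary together, their common direction is not 5 separate observations.

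The unadjusted 95% intervals of the fold changes show what these animals leave undetermined. For CD36 the interval was 0.844 to 1.41-fold and for LPL 0.83 to 1.92-fold. For ADIPOQ it was 0.698 to 3.13-fold and for FABP4 0.542 to 2.87-fold. LEP was least determined, with 0.364 to 4.45-fold. Exact two-sided permutation tests on log2 CPM, 5 steers against 5, gave p = 0.722 for ADIPOQ, 0.960 for FABP4, 0.944 for LEP, 0.603 for LPL and 0.698 for CD36. The difference of the mean log2 CPM was 0.27 for ADIPOQ, 0.05 for FABP4, 0.22 for LPL and 0.10 for CD36. Each was below the fitted log2 fold change of that gene. For LEP the difference was -0.32, opposite in sign to the fitted fold change, and without DDGS replicate 3 it was 0.77.

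When any steer other than DDGS replicate 3 was left out, none of the 5 genes reached an unadjusted edgeR p under 0.05, the smallest being 0.195. Without DDGS replicate 3 the log2 fold changes were 0.84 for ADIPOQ (SE 0.18), 0.60 for FABP4 (SE 0.20), 0.66 for LEP (SE 0.31), 0.55 for LPL (SE 0.17) and 0.26 for CD36 (SE 0.16). The edgeR unadjusted p was 0.000154 for ADIPOQ, 0.00398 for LPL, 0.00701 for FABP4, 0.0485 for LEP and 0.106 for CD36. In all, 4 of the 5 genes were at an unadjusted edgeR p under 0.05 and higher in DDGS, against 1.46% of all genes tested (186 of 12698). This share is not a like background, since the steer was set apart for its low values in these same 5 genes. Leaving it out raises their DDGS level by construction, and the 5 genes vary together. None passed the adjusted threshold: the edgeR adjusted p was 0.489 for ADIPOQ and 0.99996 for the other 4. Without this steer the DDGS means were 37.4 ± 9.2 CPM for LEP, 374 ± 29 CPM for FABP4, 360.5 ± 66.1 CPM for LPL and 284 ± 29 CPM for CD36 (SD, n = 4). In this set of 9 steers every DDGS animal was above every SBM animal for ADIPOQ (with TMM factors) but for none of the other 4 genes. Over all genes, 0.805% were separated in this direction. That share leaves out the same steer for every gene, not each gene's own lowest DDGS steer, so it is no like background for ADIPOQ either. With RLE factors, 3 of these 4 DDGS steers were above the highest SBM steer for ADIPOQ. With TMM factors, ADIPOQ averaged 321 ± 83 CPM in DDGS without this steer (SD, n = 4) against 180.1 ± 32.6 CPM in SBM (SD, n = 5). The corresponding exact two-sided permutation p, chosen after these values were seen, was 0.0159 for ADIPOQ, 0.0238 for LPL, 0.0476 for FABP4, 0.0952 for CD36 and 0.103 for LEP. No label gives a reason to set this animal aside, and the result for the study's groups is that of all 10 steers.

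**Figure D4:**
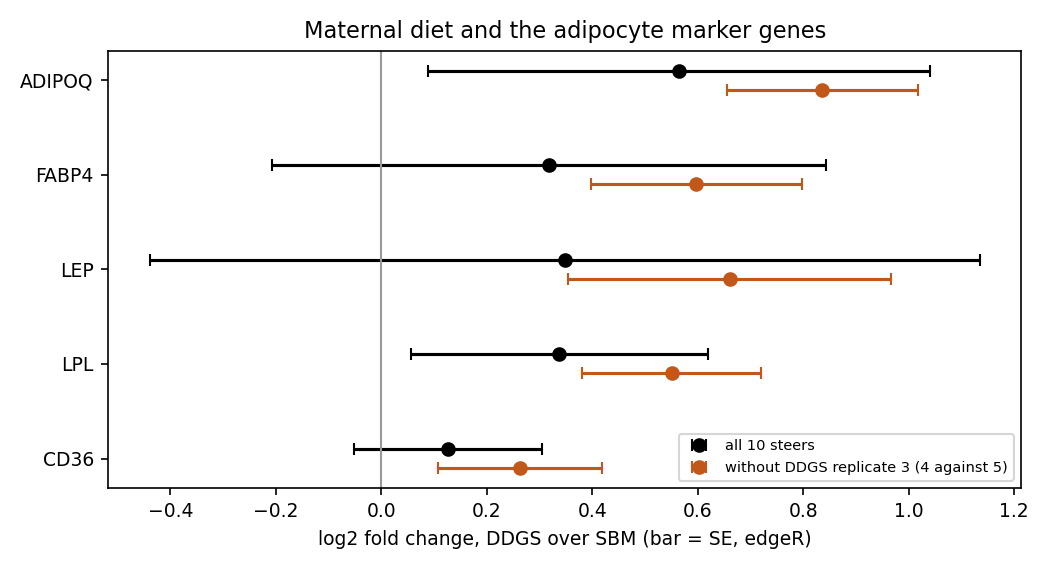
Log2 fold change, DDGS over SBM, for each gene (horizontal axis; points with SE bars from edgeR) over all 10 steers (black) and without DDGS replicate 3 (orange). The values move from 0.13 to 0.56 with all steers to 0.26 to 0.84 without that animal, and the bars become narrower for all 5 genes.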

How the data were processed

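Muscle RNA of 10 steers was measured by RNA sequencing, 1 library per animal. Per the labels' protocols, frozen tissue was pulverized, RNA was purified on columns, and a stranded kit for total RNA was used for the libraries. The authors deposited whole-number counts per Ensembl gene, not scaled to a common total. Per the submitters' processing notes, TopHat2 2.0.9, Bowtie2 and HTSeq 0.5.3p7 were used with UMD3.1, after FastQC 0.10.1. The sources used here do not give the annotation release, strand setting or filters. The lowest value in the table is 1.

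The whole table was fitted with edgeR 4.0.16 in R 4.3.3 (TMM, default expression filter, robust quasi-likelihood test, group as the only term, Benjamini-Hochberg adjustment over all genes, threshold 0.05). CPM values use TMM-scaled totals of the filtered genes, and log2 CPM a prior count of 2. Intervals follow from the fitted coefficient, its SE and the test's degrees of freedom. Alternatives were RLE, upper quartile and no factors, no filter, a stricter filter (50 counts in 5 libraries), a block for the replicate number, leaving out each library, limma 3.58.1 voom with sample weights, DESeq2 1.42.0, values of 1 set to 0, and exact permutation. The fits were tested on simulated data. The replicates are separate animals per the labels.

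The members and lists were chosen with earlier results of these data known. Besides the members, the rule named the 2 rows with the highest and the 2 with the lowest correlation with ADIPOQ at a mean of at least 1 CPM. Lists of markers of other cell types and of lipid metabolism genes were not run, since 0 of the 16963 identifiers matched the reference gene table.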

Additional observations from a re-analysis of the deposited data

Results flagged for a closer look

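In 18 groups of 5 steers examined (each gene and each ratio to ADIPOQ, by diet), 2 held an animal far from the other 4 by Dixon's criterion, where chance gives about 1 in 20 for independent values. Both were DDGS replicate 3. Its FABP4 level was 44.87 CPM, and the gap to the next DDGS steer made up 0.822 of the range of the group, above the critical value of 0.71. Its ratio of CD36 to ADIPOQ was 3.363, with a gap of 0.804 of the range. For ADIPOQ itself the gap was 0.491 of the range and for LEP 0.580, and neither passed. The criterion was applied to CPM, and gaps on the log2 scale, which sets low values farther apart, were not computed. The ratio of CD36 to ADIPOQ in SBM replicate 4 had a gap of 0.7099 of the SBM range, just under the critical value. The library of DDGS replicate 3 had 5078 genes listed at 1, the most of the 10 libraries.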

How the results depend on the processing

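Over 19 alternative fits per gene, no gene of the 5 reached an adjusted p under 0.05, and ADIPOQ, FABP4, LPL and CD36 had a higher fitted level in DDGS in all 19. LEP was higher in 18 and stood at -0.0431 with the replicate number as a block. Same-numbered steers showed correlations of their deviations over the tested genes of -0.0704 to 0.0694, so no common shift by number was seen. These correlations cannot show whether the numbers mark pairs or blocks. The block gave 0 genes past the threshold and changed no other direction or call, but it lowered the log2 fold change from 0.56 to 0.33 for ADIPOQ and from 0.32 to 0.13 for FABP4. With each library left out in turn the edgeR log2 fold change was 0.317 to 0.836 for ADIPOQ, 0.179 to 0.598 for FABP4, 0.0707 to 0.661 for LEP, 0.155 to 0.551 for LPL and 0.0392 to 0.263 for CD36. The number of genes past the threshold over the whole table was 0 with all libraries (460 at an unadjusted p under 0.05), 15 with DESeq2, 0 with limma voom and 0 to 1 with each library left out. In the exact permutation test the log2 difference of LEP was -0.3179. With each library left out, added after seeing the data, that difference was 0.0164 to 0.8175 for ADIPOQ, -0.1357 to 0.6598 for FABP4, -0.7063 to 0.7682 for LEP, 0.0545 to 0.553 for LPL and 0.0188 to 0.2709 for CD36. Below 0 were FABP4 at -0.0734, -0.0895, -0.1357 and -0.1149 without DDGS replicates 1, 2, 4 and 5 and -0.1255 without SBM replicate 1, and LEP at -0.5578, -0.5793, -0.7063 and -0.5141 without those DDGS replicates and -0.3559, -0.086, -0.4745, -0.4825 and -0.1904 without SBM replicates 1 to 5. Of the 10 gene pairs, 9 passed on the linear scale, 9 by rank, 5 to 10 with each library left out (5 without DDGS replicate 3) and 4 without the 2 farthest animals, where 8 animals remain. For counts of 253 or more, 1 SD of the counting error (the square root of the count) is at most 6.29% of the count. Only LEP in DDGS replicate 3, with 11 counts, lay below that number of counts.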
